A study of Mus musculus with 18 samples.

Results

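The genes described here are the AP-1 transcription factor genes and a few immediate early genes, 10 by name: Fos, Fosb, Fosl1, Fosl2, Jun, Junb, Jund, Atf3, Egr1 and Ier3. They were taken by symbol, with the probe set of the highest mean over all 18 arrays for each gene, out of 22180 genes that the array measured with a probe set of their own. Of the 10, 9 were measured; the probe set of Fosl1 is also annotated to a second gene, Ccdc85b, so no value is given for it. All 9 passed every filter on low values used below.

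AP-1 is a dimer of a Jun protein (Jun, Junb, Jund) with a Fos protein (Fos, Fosb, Fosl1, Fosl2), or of either with a related bZIP factor such as Atf3. Fos, Fosb and Egr1 are classical immediate early genes: serum, growth factors and cell stress switch them on within minutes through MAP kinases and the serum response factor, without new protein synthesis, and their RNAs decay fast. Fosl2 and Jund are more steadily expressed in fibroblasts, where AP-1 keeps many enhancers of the somatic state active.

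The study induced iPSCs, pluripotent cells made from somatic cells, with OKSM (Oct4, Klf4, Sox2 and Myc). Bulk cultures of reprogrammable mouse embryonic fibroblasts (MEFs), in which dox switches on OKSM, received OKSM alone or with AGi, which is ascorbic acid plus a GSK3 inhibitor, and every second day from day 2 to day 12 gave 1 array for each of the 2 arms. A further 6 arrays held 1 sample each: MEFs of the reprogrammable mouse without dox, granulocyte-macrophage progenitors (GMPs), wild-type embryonic stem cells (ESCs), a fibroblast-derived iPSC line made with 96 hours of OKSM and AGi, a GMP-derived iPSC line made with 48 hours of it, and Thy1-positive cells, labelled refractory, sorted from MEFs after 3 days of OKSM. The strain was given as Black6-129X1/SvJ for every sample, and the labels do not tie the MEF, GMP, ESC and iPSC samples to animals or litters. No group was repeated, so the 6 days of an arm stand in for replicates and p-values measure the spread between days. For the AGi effect this is the spread of same-day differences, and for slopes the spread around a line. The pluripotent class joins 3 different lines, so its p-values also hold the spread between lines. All cultures were bulk samples, in which fewer cells of a type and less RNA per cell cannot be told apart.

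Values are log2 expression after RMA normalization, so a difference of 1 is a doubling, and levels are comparable between arrays within a gene but not between genes. Array medians lay between 6.32 and 6.46. The marker lists matched the labels: the mean of 12 pluripotency markers was 10.68 to 10.82 on the ESC and iPSC arrays and 6.11 in MEFs, and that of 15 fibroblast markers was 10.54 in MEFs and 7.31 to 8.84 in the pluripotent lines. The arrays of days 4 and 6 stood apart in both arms. The fibroblast markers averaged 9.29 and 9.31 there under OKSM and 10.08 to 10.76 on the other 4 days, and 12 macrophage markers averaged 6.63 and 6.77 there and 7.88 to 8.21 on the others. With AGi the fibroblast markers averaged 8.28 and 8.65 on these days and 9.56 to 9.97 on the others. The fits over the arms were therefore repeated without these days, and values and counts from these repeats stand beside the results they moved.

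The start regions of 4 members are shown, each with an entry among the promoters of RefSeq for GRCm38.p6. Fos, Fosb and Jun differed by more than 1 log2 between the GMP-derived iPSC and ESC arrays. Atf3 differed by more than 1 log2 between the AGi arrays of days 10 and 12. Fosl2, the lowest member in the pluripotent lines against OKSM, also has an entry and is not shown. The table held 8 of the 9 measured members; Egr1 was not among them. Each is the 250 bases before the annotated start, from 5′ to 3′ on the gene's own strand: chr12:85473640-85473889 (plus strand), chr7:19310046-19310295 (minus strand), chr4:95052223-95052472 (minus strand) and chr1:191183334-191183583 (minus strand). Capitals mark the matches to the motifs described after them.

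Fos: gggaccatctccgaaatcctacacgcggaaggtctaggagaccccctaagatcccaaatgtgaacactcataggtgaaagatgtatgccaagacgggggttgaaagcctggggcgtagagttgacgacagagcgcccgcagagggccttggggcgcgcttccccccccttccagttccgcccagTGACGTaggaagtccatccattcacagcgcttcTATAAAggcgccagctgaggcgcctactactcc

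Fosb: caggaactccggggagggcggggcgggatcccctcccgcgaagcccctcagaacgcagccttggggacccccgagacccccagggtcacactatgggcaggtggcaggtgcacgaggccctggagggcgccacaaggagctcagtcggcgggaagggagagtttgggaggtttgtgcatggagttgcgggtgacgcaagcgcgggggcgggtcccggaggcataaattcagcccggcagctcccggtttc

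Jun: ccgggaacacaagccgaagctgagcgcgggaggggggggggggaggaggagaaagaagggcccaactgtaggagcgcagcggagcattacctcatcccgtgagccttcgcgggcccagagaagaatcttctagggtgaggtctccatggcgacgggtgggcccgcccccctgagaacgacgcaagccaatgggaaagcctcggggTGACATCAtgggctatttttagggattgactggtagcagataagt

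Atf3: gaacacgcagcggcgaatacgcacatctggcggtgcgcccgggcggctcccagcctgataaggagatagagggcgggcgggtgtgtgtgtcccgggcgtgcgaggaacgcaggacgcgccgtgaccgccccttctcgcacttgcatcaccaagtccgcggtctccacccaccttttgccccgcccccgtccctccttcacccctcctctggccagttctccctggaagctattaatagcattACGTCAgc

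In Fos the capitals are a TGACGT, the core of a cAMP response element, from −66 to −61 before the start, and a TATAAA from −33 to −28. In Jun they are TGACATCA, from −45 to −38, a match to TGACNTCA. In Atf3 they are ACGTCA, the reverse complement of TGACGT, from −8 to −3. Fosb had no match and is shown without capitals. Searched on both strands in 32851 promoters of the same length, TGACGT was found in 6.47% and in 2 of the 8 members, TGACNTCA in 7.49% and in 1 of 8, and TATAAA in 12.4% and in 1 of 8. These 3 motifs were chosen after the sequences were seen, and every TGACGTCA also matches both TGACGT and TGACNTCA. The full cAMP response element TGACGTCA (1.55% of promoters), the AP-1 site TGANTCA (6.75%) and the CArG box of the serum response factor (1.47%) had no match in the 8 windows. The serum response element of Fos is known to lie further upstream than this window reaches.

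The first comparison asked how the AP-1 genes stood in MEFs before induction and how OKSM changed them. On the MEF array Fosb and Fosl2 were higher than on any of the 12 time-course arrays, as were 18.2% of all genes. Jun and Ier3 exceeded their MEF level on 1 time-course array, that of day 12 with AGi, where Junb was level with MEFs (10.57 on both). The MEF values of Fos and Egr1 lay within their time-course ranges.

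Fosb, a growth-factor-induced partner of Jun, was 8.84 in MEFs. Under OKSM it was 7.22, 7.35, 7.92, 7.98, 7.54 and 7.41 on days 2 to 12, and with AGi 7.36, 6.82, 6.67, 6.70, 6.97 and 7.73. All 12 values lay below the MEF array, and the lowest were those of days 4 to 8 with AGi. These lowest values were near the array medians of 6.32 to 6.46, the cut for low values. The difference from MEFs was −1.27 ± 0.37 under OKSM (log2, limma SE, n = 6 days against 1 array, adjusted p = 0.043) and −1.80 ± 0.37 with AGi (adjusted p = 0.00419). Both differences use the same MEF array, whose spread is assumed to equal that between days. Without days 4 and 6 the AGi difference was −1.65 (adjusted p = 0.0201). The OKSM call was lost without day 2, 4 or 10 (adjusted p = 0.0548, 0.0743 and 0.0888), without days 4 and 6 together (0.0697) and with no filter on low values (0.0581).

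Fosb was the 1 member of 9 that changed by this test in either arm. Over all 14159 genes, limma called 4.05% lower and 6.90% higher under OKSM, and 9.68% lower and 15.6% higher with AGi, against MEFs. No member was called higher in either arm, nor did any have a positive difference at an unadjusted p under 0.05 in limma. The median difference of the members was −0.42 under OKSM and −0.45 with AGi, against 0.05 for all genes in each.

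Fosl2, a Fos family member with a longer-lived protein than Fos, was 11.01 in MEFs. It ranged from 9.95 to 10.80 under OKSM, with a median of 10.41, and from 9.75 to 10.73 with AGi, with a median of 10.18. All 12 arrays were below MEFs, but neither difference passed the test (−0.57 ± 0.32, adjusted p = 0.284 and −0.84 ± 0.32, adjusted p = 0.0699). Without day 12 the AGi difference did (adjusted p = 0.0288).

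Jun, the founding AP-1 subunit, was 10.87 in MEFs, 9.96 to 10.66 under OKSM and 9.99 to 10.95 with AGi. The AGi arm passed the MEF level on day 12 alone. Junb, which often restrains Jun activity, was 10.57 in MEFs, 9.98 to 10.52 under OKSM and 9.70 to 10.57 with AGi, where day 12 again reached the MEF level. Neither gene was called against MEFs over all 6 days. Without day 12, Junb was lower with AGi (adjusted p = 0.00763).

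Ier3, a stress- and growth-factor-induced survival gene, was 11.33 in MEFs. It was 9.51, 10.38, 9.92, 10.41, 10.75 and 10.32 under OKSM, all below MEFs, and 10.19, 10.40, 10.02, 10.47, 10.83 and 11.44 with AGi, where day 12 was above. The OKSM difference of −1.12 ± 0.47 missed the threshold (adjusted p = 0.149). Jund, a broadly expressed Jun protein, was 9.96 in MEFs, within the range of both arms (9.63 to 10.21 and 9.59 to 10.30). Atf3, a stress-induced repressor and AP-1 partner, was 8.26 in MEFs, also within both ranges.

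Fos was 7.89 in MEFs and above that on all 6 OKSM days, at 8.12 to 9.58. The difference of 1.05 ± 0.52 did not pass the test (adjusted p = 0.229). Egr1, a zinc finger factor induced by the same signals, was 9.74 in MEFs, with OKSM days on both sides of it.

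The other genes of the response were given by lists. Of 34 other immediate early genes tested, 9 were lower and 3 higher than MEFs under OKSM, and 15 were lower and 3 higher with AGi. Ptgs2, the inducible cyclooxygenase, differed by −2.81 ± 0.68 (adjusted p = 0.0193) and Plk3, a stress kinase, by −1.67 ± 0.37 (adjusted p = 0.0125). Nr4a1, an orphan nuclear receptor, rose by 1.13 ± 0.29 (adjusted p = 0.0281) and Cebpd by 1.21 ± 0.29 (adjusted p = 0.0189). With AGi, Ccn2, a matricellular gene, differed by −2.53 ± 0.37 and Egr2, a relative of Egr1, by −2.38 ± 0.21 (adjusted p = 0.000615 and 2.13e-05). Of 15 genes described as AP-1 targets, 5 were lower and 1 higher under OKSM and 7 lower with AGi. They included Hbegf, a growth factor, at −2.14 ± 0.55 under OKSM (adjusted p = 0.0281) and Plau, the urokinase gene, at −2.67 ± 0.35 with AGi (adjusted p = 0.000277). Under OKSM, the count of higher immediate early genes was 1 without day 4, 6, 8 or 10, and that of lower AP-1 targets was 2 without day 6 or 10 and 3 without day 8. With AGi the lower AP-1 targets were 4 without day 6 or 10. Without days 4 and 6 together, 8 of the other immediate early genes were lower and 0 higher under OKSM, and 10 lower and 1 higher with AGi. The AP-1 targets were then 5 lower and 0 higher under OKSM and 6 lower with AGi. Markers of cell types also differed from MEFs. The 5 smooth muscle markers were lower in 3 under OKSM and in all 5 with AGi, with medians of −1.99 and −2.10 (3 with AGi without days 4 and 6). Of 15 fibroblast markers, 1 was lower under OKSM (median −0.57) and 6 with AGi (median −1.58). The part of these markers in the differences from MEFs was not tested.

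**Figure D1:**
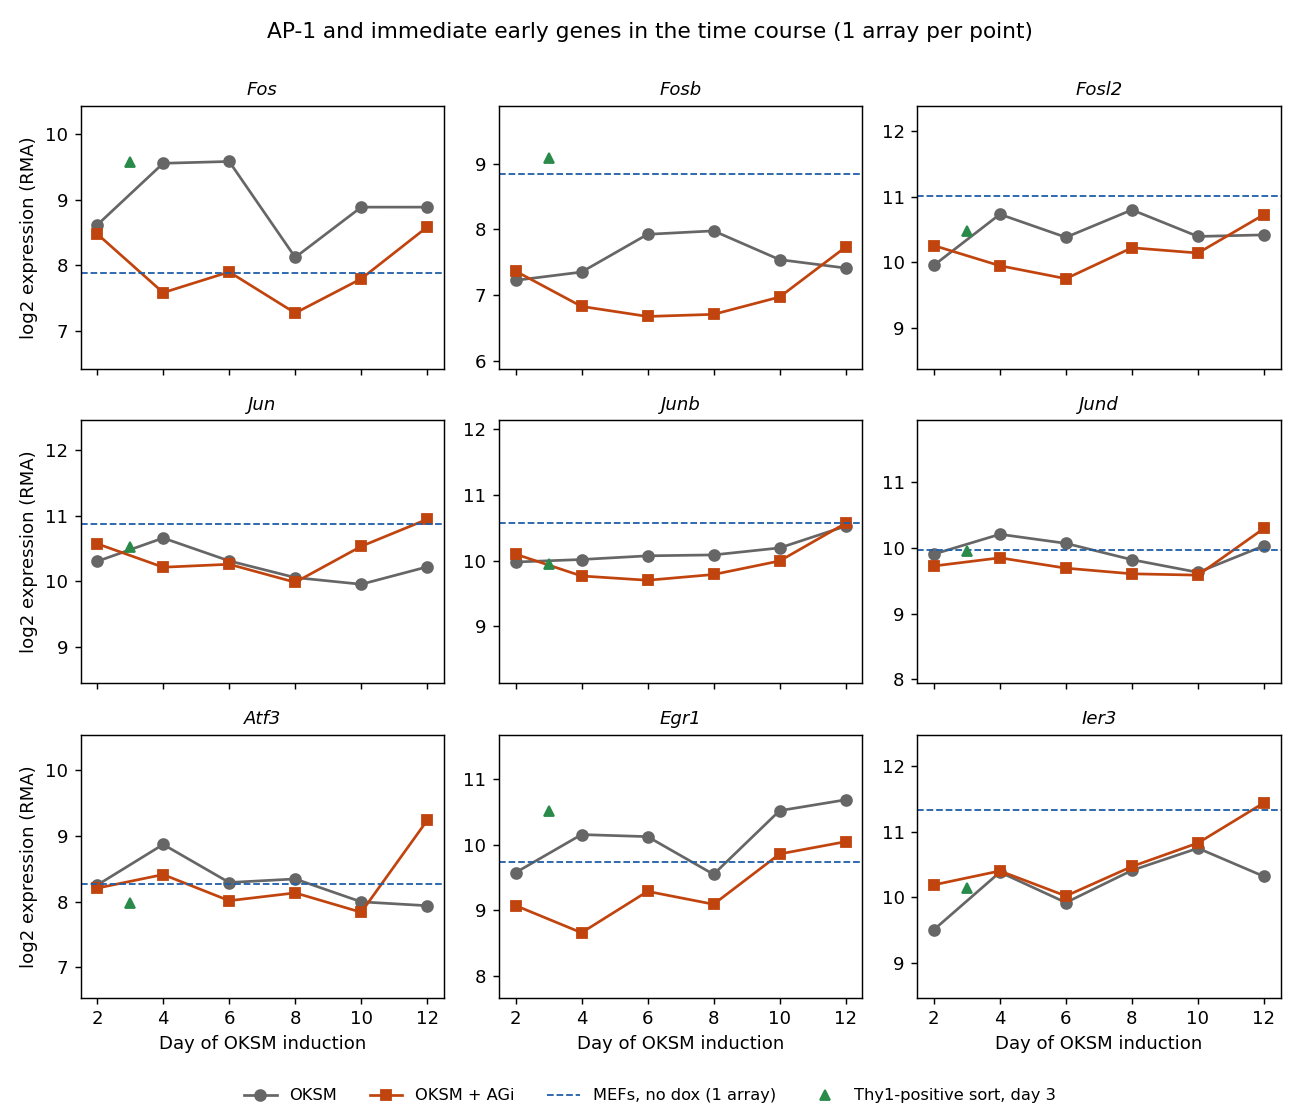
Log2 expression (RMA, y axis, each panel spanning 4 log2 units) of the 9 measured genes against the day of OKSM induction (x axis), with 1 array per point. Grey circles are OKSM alone, orange squares OKSM with AGi, the dashed line the MEF array and the triangle the Thy1-positive sort of day 3. Fosb and Fosl2 lie below the MEF line on all 12 arrays, and Fos and Egr1 are lower with AGi on each day.

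The second comparison asked how AGi changed these genes over the 6 days. Fos and Egr1 were lower with AGi on all 6 days, with mean differences of −1.01 and −0.76 log2, and they were the 2 of 9 members that passed the test. No member was called higher, and 0 had a positive difference at an unadjusted p under 0.05 in limma. Over all 13865 genes tested, 19.3% were called lower and 19.6% higher with AGi, so a share of 2 in 9 is near the background. The median difference of the members was −0.16, against 0.001 for all genes.

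Fos was 8.61, 9.55, 9.58, 8.12, 8.88 and 8.88 under OKSM on days 2 to 12. With AGi it was 8.48, 7.58, 7.90, 7.27, 7.79 and 8.58. The arms were closest on days 2 and 12 (−0.13 and −0.30) and furthest apart on days 4 and 6 (−1.97 and −1.68), and their ranges overlapped. The difference was −1.01 ± 0.24 (limma SE, n = 6 days, adjusted p = 0.0141). With days 4 and 6 left out it was −0.59 and was no longer called (adjusted p = 0.0612), nor was it with days 2, 4 and 6 alone (−1.26, adjusted p = 0.0715). With days 8, 10 and 12 alone it was called (−0.75, adjusted p = 0.0198).

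Egr1 was 9.58, 10.16, 10.12, 9.55, 10.52 and 10.69 under OKSM and 9.07, 8.66, 9.29, 9.09, 9.86 and 10.05 with AGi. It was lower with AGi on every day, and the arms overlapped because the AGi values of days 10 and 12 (9.86 and 10.05) passed the OKSM values of days 2 and 8 (9.58 and 9.55). The difference was −0.76 ± 0.13 (adjusted p = 0.00426). It was called in each alternative run, with adjusted p from 0.00301 to 0.0446, and it was −0.56 without days 4 and 6 (adjusted p = 0.019).

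The arrays of the arms also differed in probe sets that come from no cell. All 18 hybridisation controls, added to every sample after labelling, read higher with AGi, by 0.06 to 0.26 (mean 0.17 ± 0.07, SD over 6 days). Tested against the largest control difference in place of 0, Egr1 was called (adjusted p = 0.0383) and Fos was not (adjusted p = 0.0763). This limma test takes the size in either direction. Fos and Egr1 were lower with AGi, the opposite sign to the controls. The counts drawn from this test below therefore set a threshold of size only. The part of the arrays in these differences was not tested.

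The other AP-1 genes moved less and not on every day. Fosb was lower with AGi on days 4 to 10 (−1.27 to −0.52) and higher on days 2 and 12 (0.14 and 0.32). The mean was not called (−0.53 ± 0.22 over all 6 days, adjusted p = 0.0966). Fosl2 had the same signs, with −0.78 to −0.25 on days 4 to 10 and 0.30 and 0.31 on days 2 and 12 (adjusted p = 0.22). Junb was also lower on those 4 days (−0.37 to −0.20) and higher on days 2 and 12 by 0.12 and 0.04 (adjusted p = 0.153). Jund was lower on 5 days and higher on day 12. Jun was higher on 3 days and lower on 3 (0.17 ± 0.15, adjusted p = 0.412).

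Atf3 was lower with AGi on days 2 to 10 (−0.46 to −0.05) and higher by 1.30 on day 12, with a mean of 0.02 ± 0.21 (adjusted p = 0.938). Ier3 was the 1 member that was higher with AGi on all 6 days, by 0.02 to 1.12, but the difference of 0.34 ± 0.16 did not pass the test (adjusted p = 0.115). By sign alone, 18.5% of all genes were lower and 18.0% higher with AGi on 6 of 6 days.

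The calls of Fosb, Jund and Atf3 depended on day 12. Without day 12, 5 of the 9 members were called lower with AGi: Fos, Egr1, Fosb (−0.70, adjusted p = 0.0366), Jund (−0.23, adjusted p = 0.0384) and Atf3 (−0.23, adjusted p = 0.0473). With any other single day left out, 2 were called. Over all 6 days 19.3% of genes were called lower. The share of all genes called lower without day 12 is not given here, so the 5 of 9 is not read as a result about the members.

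**Figure D2:**
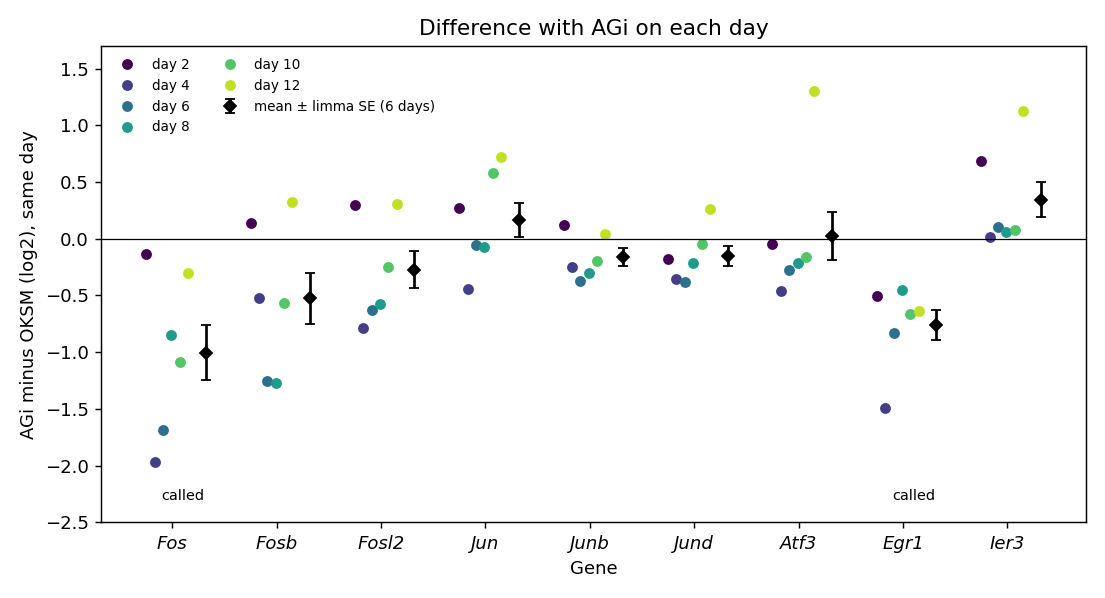
Difference of the log2 expression with AGi minus OKSM alone on the same day (y axis) for each gene (x axis). Coloured points are the 6 days, the black diamond is their mean with the limma SE, and "called" marks an adjusted p under 0.05. All 6 points of Fos and Egr1 are below 0, and the day 12 point of Atf3 stands at 1.30 above 5 points under 0.

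Among the other immediate early genes, 10 of 34 tested were lower with AGi and 2 higher, with a median of −0.11. Ccn2 was 11.36, 11.63, 11.48, 11.74, 11.51 and 11.74 under OKSM and 10.48, 9.95, 10.01, 9.61, 9.02 and 10.15 with AGi. Every AGi array was below every OKSM array, a separation seen in 5.44% of all genes, and the difference was −1.71 ± 0.19 (adjusted p = 0.00107). Egr2 was 8.35 to 8.93 under OKSM and 7.56 to 8.09 with AGi, also without overlap, and differed by −0.86 ± 0.06 (adjusted p = 0.000518). Socs3, a feedback inhibitor of cytokine signalling, rose with AGi by 0.43 ± 0.13, in 5 of the 6 pairs of arrays (adjusted p = 0.0333), and Plk2, a polo-like kinase, by 0.24 ± 0.06, in 6 of 6 (adjusted p = 0.0205). The count of lower genes was 4 without days 4 and 6, 6 without day 10 and 3 with days 2, 4 and 6 alone. Against the largest control difference it was 2. That of higher genes was 0 without day 6 or against the largest control difference, and at most 4, with days 8, 10 and 12 alone.

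The listed phosphatases and feedback inhibitors that switch off MAP kinases, many of them induced by ERK activity, were lower with AGi in all 12 of 12 by sign and in 8 by test, with a median of −0.34. Dusp6, the phosphatase of ERK, was 10.57, 11.19, 11.51, 11.16, 11.63 and 11.50 under OKSM and 8.94, 9.92, 10.26, 10.92, 10.89 and 10.85 with AGi. It was lower on each day, most on day 2, and differed by −0.96 ± 0.17 (adjusted p = 0.00468). Dusp4, a nuclear phosphatase of the same family, differed by −1.02 ± 0.15 (adjusted p = 0.00242). This count was 4 without day 6 or day 10, 5 without day 4, 2 without days 4 and 6, 3 with days 8, 10 and 12 alone, 5 with days 2, 4 and 6 alone, and 2 against the largest control difference. The counts hold for the list as drawn. Dusp1, a MAP kinase phosphatase kept among the other immediate early genes and named here after its values were seen, was not called (−0.06 ± 0.19, limma adjusted p = 0.814). It was lower on 3 days and higher on 3.

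The remaining lists were split. Of 11 kinases and ternary complex factors on the path to AP-1, Map2k1, which encodes the ERK kinase MEK1, was higher (0.45 ± 0.13, adjusted p = 0.0273), and the ternary complex factors Elk4 and Elk3 were lower (−0.34 ± 0.08 and −0.30 ± 0.08, adjusted p = 0.0167 and 0.0193). Of 11 other bZIP partners, 2 were higher and 3 lower. Nfe2l2, the antioxidant regulator NRF2, was higher (0.31 ± 0.06, adjusted p = 0.00489), and Jdp2, a dimer partner and repressor of Jun, was lower (−0.72 ± 0.16, adjusted p = 0.0107). Of 15 genes described as AP-1 targets, Hmox1 (0.68 ± 0.08, adjusted p = 0.00109) and Lif (0.33 ± 0.08, adjusted p = 0.018) were higher, and Plau (−0.83 ± 0.16, adjusted p = 0.00642) and Ereg (−0.48 ± 0.09, adjusted p = 0.00526) were among the 3 lower, a count that was 5 without day 12. Of 10 heat shock genes, a response that also accompanies cell handling, 5 were higher and 1 lower. Without days 4 and 6, the kinase list had 0 higher and 2 lower, the bZIP partners 0 and 1, the AP-1 targets 2 and 1 and the heat shock genes 4 and 0. Against the largest control difference they were 0 and 0, 0 and 1, 1 and 1, and 0 and 0 in the same order. The cell type markers moved at the same time: 12 of 15 fibroblast markers, 3 of 5 smooth muscle markers (median −1.08) and 2 of 3 endothelial markers tested were lower with AGi. Of 9 macrophage markers, 6 were lower and 1, Cd68, was higher (0.45 ± 0.13, adjusted p = 0.0281), and 7 of 12 pluripotency and 8 of 11 epithelial markers were higher. Against the largest control difference, 8 fibroblast, 3 smooth muscle, 0 endothelial and 0 macrophage markers were lower, and 3 pluripotency and 4 epithelial markers were higher. Without days 4 and 6, 1 endothelial marker was lower, no macrophage marker was higher, and 5 epithelial markers were. Their part in the differences above was not tested.

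**Figure D3:**
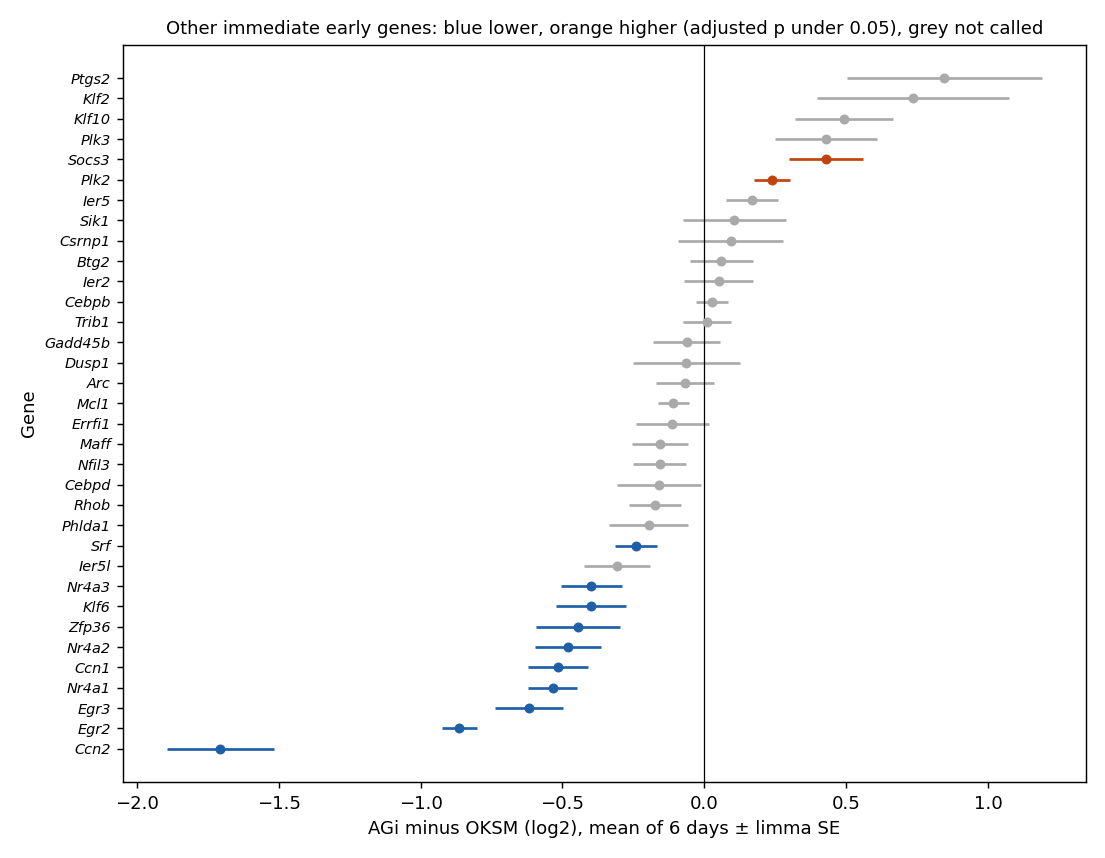
AGi minus OKSM alone in log2 (x axis, mean of 6 days with the limma SE) for the 34 other immediate early genes tested (y axis). Blue points are the 10 lower genes, orange points the 2 higher ones and grey points those not called, with Ccn2 at −1.71 and Egr2 at −0.86 the lowest.

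The time course itself was then fitted with a slope per arm. Egr1 and Ier3 rose with AGi, by 0.12 ± 0.04 and 0.11 ± 0.04 log2 per day (adjusted p = 0.0445 and 0.0444), where 10.5% of genes rose and 8.23% fell. Both calls were lost without day 4, 6, 10 or 12, without days 4 and 6 together (adjusted p = 0.155 and 0.0697), with no filter on low values and when late days were compared with early ones. Under OKSM alone the slopes were 0.09 and 0.08 (adjusted p = 0.158 and 0.172) and 0 of 9 members passed, with 2 of them at an unadjusted p under 0.05 in limma, where 5.11% of genes rose and 3.87% fell. The difference of the slopes between the arms passed for 0 of 9 members, with 0 at an unadjusted p under 0.05, against 1.76% of genes steeper and 1.30% less steep with AGi.

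The last step, from day 10 to day 12, was examined after the values were seen and rests on 1 array per arm and day. With AGi all 9 members were higher on day 12 than on day 10, as were 6046 of 13750 genes, and 7 members were higher by at least 0.5, as were 8.92% of genes. Atf3 went from 7.84 to 9.24, a difference of 1.40, while 2.41% of genes were higher by at least 1 and 1.11% lower. Fos went from 7.79 to 8.58, Fosb from 6.97 to 7.73 and Jund from 9.59 to 10.30. Jun (0.41) and Egr1 (0.19) moved least. Under OKSM alone, 6 members were higher and 3 lower, where 6516 of 13477 genes were higher, and none passed 0.5, where 2.09% of genes did. By at least 1, 0.334% of genes were higher and 0.0371% lower. Of 34 other immediate early genes, 29 were higher on day 12 with AGi and 25 under OKSM alone, 4 and 1 of them by at least 1. Klf2, a Krüppel-like factor also expressed in naive pluripotent cells, went from 8.83 to 10.16 with AGi. The mean of the pluripotency markers went from 9.20 to 10.12 with AGi and from 6.59 to 7.79 without it, and whether this, the culture or the array moved the AP-1 genes was not tested.

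**Figure D4:**
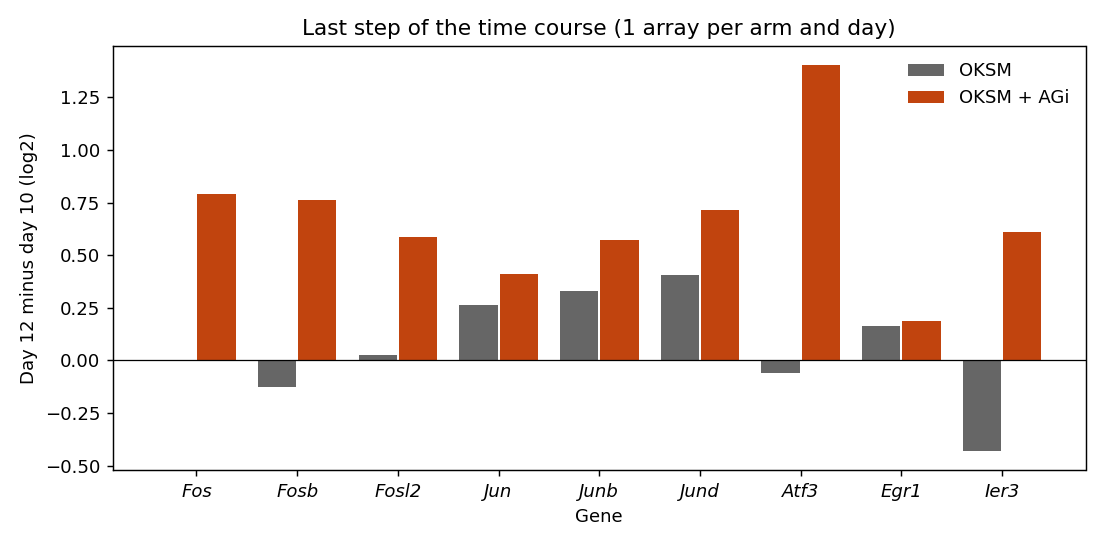
Day 12 minus day 10 in log2 (y axis) for each gene (x axis), 1 array per arm and day, with OKSM alone in grey and OKSM with AGi in orange. All 9 orange bars are above 0, from 0.19 for Egr1 to 1.40 for Atf3, and the grey bars lie between −0.43 and 0.41.

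The Thy1-positive cells sorted on day 3 of OKSM lay between the OKSM arrays of days 2 and 4 in time. Fosb was 9.08 in them, against 7.22 and 7.35 on those days and 8.84 in MEFs, so it was higher by 1.86 and 1.74. It was the 1 member past 1 log2 in either comparison. Over all genes, 0.841% were higher and 0.833% lower by at least 1 than on day 2, and 0.916% higher and 1.15% lower than on day 4. Fos was 9.58, above day 2 (8.61) and level with day 4 (9.55), and Egr1 was 10.51, above both (9.58 and 10.16). Among the other immediate early genes, Ptgs2 (11.02 against 9.20) and Trib1 (8.88 against 7.87) passed 1 against day 2. Against day 4, 0 of 35 passed 1, with 16 higher and 19 lower by sign. Of the members, 6 were below day 4, with Atf3 furthest at −0.89, and 2 were below day 2. Of all genes, 6804 of 13543 were below day 4 and 7817 of 13681 below day 2. The macrophage markers were lower than on day 2 in 9 of 9 and higher than on day 4 in 8 of 9, and their part in these differences was not tested. Sorting handles cells in a way that the bulk arrays were not handled, and the effect of this was not tested.

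The third comparison set the pluripotent lines against the OKSM cultures. Fosl2, Jun and Junb were lower in the 3 pluripotent arrays, taken as 1 class. No member was called higher, and 0 had a positive difference at an unadjusted p under 0.05 in limma. Over 13935 genes, 29.2% were called lower and 28.0% higher, so 3 of 9 is near the background. The median of the members was −0.38, against 0.02 for all genes.

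Fosl2 was 8.41 in ESCs, 8.86 in Fibroblast-iPSC and 8.36 in GMP-iPSC. It was the 1 member whose 3 pluripotent arrays lay below all 12 time-course arrays, as did 16.7% of all genes. The difference from OKSM was −1.90 ± 0.19 (n = 3 against 6 arrays, adjusted p = 2.15e-05), and it was called in each alternative run (adjusted p from 1.3e-05 to 0.000241). In GMPs Fosl2 was 9.15.

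Jun was 9.99, 9.09 and 8.40 in the same order, with the ESC array within the range of the OKSM cultures, and differed by −1.09 ± 0.29 (adjusted p = 0.00926). Without the ESC array the difference was −1.51 and without the GMP-iPSC array −0.71, both called. Junb was 9.87, 9.61 and 9.81, all below the OKSM range, and differed by −0.38 ± 0.12 (adjusted p = 0.0248). This call was lost without the Fibroblast-iPSC array (adjusted p = 0.102) or the GMP-iPSC array (0.0544).

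Jund was 10.23, 10.16 and 10.21, the narrowest spread among the members in these lines, and did not pass the test against OKSM (0.25 ± 0.12, adjusted p = 0.0977). It was called higher without day 4 (adjusted p = 0.0413) or without days 4 and 6 (0.0252). Ier3 (9.93 to 10.44) and Atf3 (7.97 to 8.74) were not called. Of 34 other immediate early genes, 12 were lower and 8 higher in the pluripotent lines, with Ccn1 at −1.95 ± 0.17 (adjusted p = 1.01e-05) and Klf2 at 3.44 ± 0.20 (adjusted p = 9.51e-07). Of the 12 MAP kinase phosphatases and feedback inhibitors, 6 were lower and 0 higher, or 1 higher without day 2, 4 or 12 or without days 4 and 6 together. Dusp14 was the lowest at −2.75 ± 0.22 (adjusted p = 5.97e-06).

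Fos, Fosb and Egr1 could not be described by 1 level for the pluripotent class. Fos was 9.83 in ESCs, 8.69 in Fibroblast-iPSC and 6.77 in GMP-iPSC. The ESC value was the highest and the GMP-iPSC value the lowest of all 18 arrays. Fosb was 9.52, 8.57 and 6.48, with the same arrays at its top and bottom. Its GMP-iPSC value lay close to the array medians of 6.32 to 6.46, the cut for low values, so its level there is near the low end of the signal. Egr1 was 10.02, 9.68 and 8.30 in this order, and only the GMP array (6.87) was lower than GMP-iPSC. Without the GMP-iPSC array Fosb was higher than in OKSM (1.47, adjusted p = 0.0025), and without the ESC array Egr1 was lower (−1.11, adjusted p = 0.0467).

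Between single lines, differences are sizes with no test. GMP-iPSC minus ESC was −3.06 for Fos, −3.04 for Fosb, −1.72 for Egr1 and −1.60 for Jun, which is 4 of 9 members past 1 log2. Of 13581 genes, 1.16% were lower and 0.950% higher by that much. Fosl2, Junb and Jund differed by −0.06 to −0.02 between these arrays. Fibroblast-iPSC minus ESC was −1.14 for Fos, the 1 member past 1, where 1.66% of genes were lower and 2.54% higher. Fibroblast-iPSC was higher than GMP-iPSC by 2.10 in Fosb, 1.92 in Fos and 1.38 in Egr1, where 1.95% of genes were higher and 0.486% lower.

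Of 33 other immediate early genes kept, 4 were lower and 1 higher by at least 1 in GMP-iPSC than in ESCs: Ptgs2 (−1.20), Rhob (−1.15), Egr2 (−1.11) and Klf6 (−1.01) were lower and Plk2 (1.49) was higher. Egr2 and Klf6 are named here after their values were seen. In Fibroblast-iPSC, 1 was lower and 2 were higher than in ESCs by that much. The median of the list in GMP-iPSC minus ESC was −0.06, against 0.01 over all genes and −0.77 for the 9 members. None of the 12 MAP kinase phosphatases and feedback inhibitors passed 1 there. The fibroblast markers averaged 8.04 in ESCs, 8.84 in Fibroblast-iPSC and 7.31 in GMP-iPSC, and their part in these differences was not tested.

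**Figure D5:**
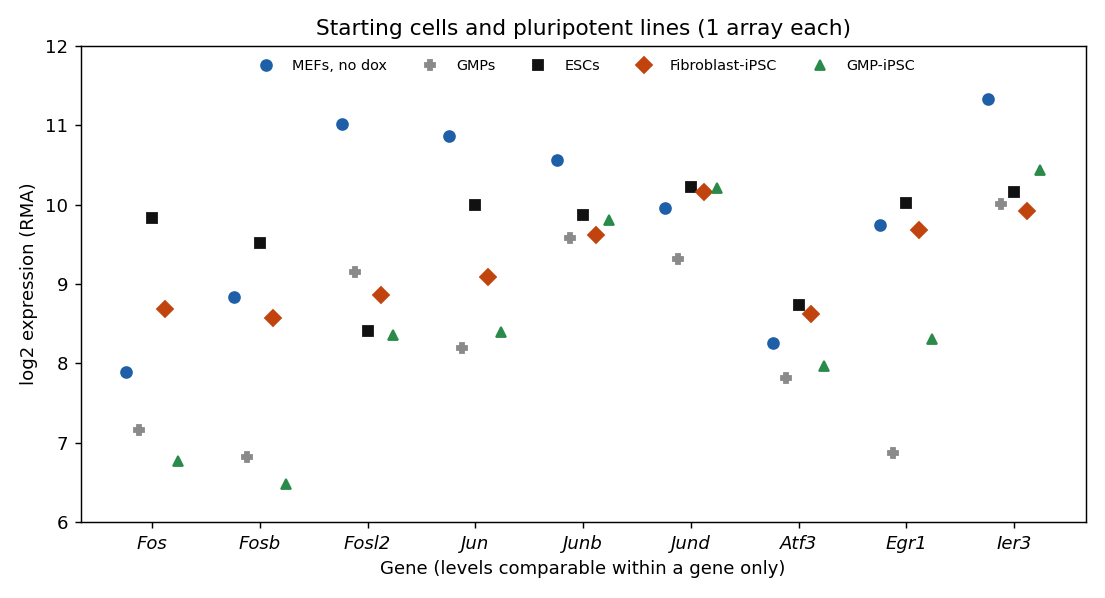
Log2 expression (y axis) of the 9 measured genes (x axis) on the arrays of MEFs, GMPs, ESCs, Fibroblast-iPSC and GMP-iPSC, 1 array each. Fos and Fosb spread over 3.06 and 3.04 log2 between ESCs and GMP-iPSC, while Jund lies at 10.16 to 10.23 in all 3 pluripotent lines.

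Against MEFs, the ESC array was higher in Fos by 1.94 and lower in Fosl2 (−2.60) and Ier3 (−1.17), where 12.9% of genes were higher and 12.7% lower by at least 1. GMPs, a blood progenitor, were below MEFs in all 9 members, as they were in 6290 of 14037 genes. They were below by at least 1 in 5 members: Egr1 (−2.87), Jun (−2.68), Fosb (−2.02), Fosl2 (−1.86) and Ier3 (−1.32). By that size 13.2% of genes were lower and 11.5% higher. Of 34 other immediate early genes, 16 were lower and 1 higher in GMPs, with Ptgs2 (5.88 against 12.69) the lowest and Cebpd (7.93 against 6.58) the higher one. Both comparisons share the MEF array.

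The range over all 18 arrays differed between members. Egr1 ranged over 3.82, Fos over 3.06, Fosb over 3.04, Jun over 2.75 and Fosl2 over 2.65, against a median range of 1.17 over all genes kept. Ier3 ranged over 1.93, Atf3 over 1.42, and Jund and Junb over 0.99 each. In order of the array, Fos was highest in ESCs (9.83), OKSM day 6 and the Thy1-positive sort (both 9.58) and OKSM day 4 (9.55), and lowest in GMP-iPSC (6.77), GMPs (7.16) and AGi day 8 (7.27). Egr1 was highest on OKSM day 12 (10.69) and day 10 (10.52) and in the Thy1-positive sort (10.51), neighbours that lie within the spread between days of 0.47 (SD, n = 6). Junb was highest in MEFs and on AGi day 12 (both 10.57) and lowest in GMPs (9.58).

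Over the 18 arrays, the gene whose pattern was most like that of Fos was Egr1 (Pearson r = 0.76, Spearman rho = 0.80), then Pcbp3 (0.71 and 0.72) and Afmid (0.70 and 0.68). For Egr1 they were Arhgef11 (0.92 and 0.81), Rxra (0.86 and 0.70) and D5Ertd579e (0.86 and 0.74), and for Junb they were Gpr153 (0.88 and 0.86), Plat (0.87 and 0.81) and Ginm1 (0.86 and 0.84). Over the 12 time-course arrays alone, r was 0.71 between Fos and Egr1, 0.67 between Fos and Fosb, 0.77 between Fosb and Fosl2, 0.79 between Jund and Atf3 and −0.16 between Fos and Ier3. These are descriptions, since the genes were read on the same arrays and the arrays of an arm share its treatment.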

How the data were processed

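RNA was DNase-treated, purified with an RNeasy Mini kit and put on Affymetrix mouse gene arrays (labels' protocols). Each deposited number is a log2 level for 1 probe set, which the authors obtained by RMA in Affymetrix Expression Console (submitters' processing notes). The sources used here give no versions, scan dates or probe set build, so array batches could not be tested.

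Of 41345 probe sets, 23521 carried 1 symbol, 1814 several and 16010 none, controls included. Platform symbols were brought up to date with RefSeq's GRCm38.p6 gene table, except 193. Jund had 2 probe sets, and the one with the higher mean was used. A gene was kept if it reached the array median on at least 3 of the arrays in a fit (in MEF fits, or on the MEF array), or on 1 array of a pair.

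Fits used limma 3.58.1 under R 4.3.3, with Benjamini-Hochberg adjustment over all genes kept and a threshold of 0.05. The AGi effect was blocked by day (5 residual degrees of freedom). Slopes came from arm, day and their product (8). MEF fits used 13 arrays (10), the single MEF array being assumed to vary like the days of an arm, and the pluripotent fit used 9 (7). Pairs of arrays were compared by size, with 1 log2 as the threshold. The fits were run on simulated arrays with 200 changed genes and independent noise. These arrays held no shift shared by the arrays of a day, so the run says nothing about such shifts.

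All 9 measured members are named. Of each other list, the 2 highest and 2 lowest among those called, or past 1 log2, are named at most. The members and lists were chosen with earlier results of these data known. Alternatives changed the filter, normalization, variance model, probe set rule, day term and days, or left out each day or pluripotent array. Leaving out days 4 and 6 together, leaving out days for the gene lists, and the step from day 10 to day 12 were added after the data were seen. Python 3.11.15 with matplotlib 3.10.9 drew the figures.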

Additional observations from a re-analysis of the deposited data

Results flagged for a closer look

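Each member was examined for 1 array far from the others over the 6 days of each arm and over the 6 daily differences. Of 27 such groups, 3 were marked by Dixon's criterion, where chance gives about 1 in 20 groups, or 1.35. Jund with AGi was 10.30 on day 12, against 9.59 to 9.85 on the other 5 days. The AGi minus OKSM difference of Atf3 was 1.30 on day 12, against −0.46 to −0.05 on the other days. The same difference of Egr1 was −1.50 on day 4, against −0.83 to −0.46.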

How the results depend on the processing

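Among the members' own estimates, 701 of 801 under an alternative kept both their direction and their side of the threshold. The AGi effect of Atf3, 0.02 over all days, lay between −0.23 (without day 12) and 0.12 (without day 4).

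Members called lower with AGi were 2, and 1 against the largest control difference, 1 with days 2, 4 and 6 alone and 1 with days 4 and 6 left out. Genes called with AGi were 5397, and 1183, 1833 and 2613 in the same order. Against MEFs, the 1 member called under OKSM became 0 with no filter, with days 8, 10 and 12 alone (3062 genes called, against 1551) and without days 4 and 6. With AGi the count also changed with days 2, 4 and 6 alone, where the number of all genes called is not given here. Members higher in the pluripotent class were 0, and 1 without days 4 and 6. The 2 members rising with AGi became 1 after quantile normalization, and 0 with no filter, with late against early days (1460 genes, against 2602), without days 4 and 6 (1626 genes) and with a separate level for days 8 to 12 (82 genes). Genes whose slopes differed were 424, then 227 without days 4 and 6, 57 with late against early days and 0 with the separate level. Genes with a slope under OKSM were 1246, then 498 without days 4 and 6 and 0 with the separate level, by limma.

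With each day or pluripotent array left out in turn, the members called ranged from 2 to 5 (lower with AGi), 0 to 1 (OKSM against MEFs), 1 to 3 (AGi against MEFs), 2 to 4 (lower) and 0 to 1 (higher) in the pluripotent class, and 0 to 4 (rising with AGi). No member was called for a slope under OKSM or a slope difference. The genes called ranged from 3534 to 5613 for AGi, 1020 to 1848 and 2748 to 4189 against MEFs, 6869 to 8102 for the pluripotent class, 94 to 484 for the slope difference, 341 to 1493 for OKSM slopes and 882 to 3283 for AGi slopes. Apart from fits with fewer arrays or genes, the cause of these changes was not tested.

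Counts between single arrays moved with the size asked for, 0.5 or 2 log2 in place of 1. Fibroblast-iPSC had 3 and 0 members below ESCs, and GMP-iPSC 2 at 2 log2. Fibroblast-iPSC had 5 and 1 above GMP-iPSC, and 1 below it at 0.5. ESCs had 2 and 0 above MEFs and 4 and 1 below, GMPs 8 and 3 below MEFs. The Thy1-positive sort had 5 and 0 above day 2, 0 above day 4 at 2 log2 and 1 below day 4 at 0.5. AGi day 12 had 7 and 0 above day 10. With 1 array per group no count has a test. Shares of all genes past 0.5 or 2 log2 are not given for these pairs, apart from 8.92% for AGi day 12 at 0.5. These counts are therefore not read as results about the members. The arms were paired by day in the AGi effect, each day being a block of 2 arrays, and without this block 2 members and 3876 genes were called with AGi.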
